A study of Homo sapiens with 58 samples.

Results

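The genes described here are 40 genes of the G2 phase and of mitosis, chosen by name. The rule that picks them uses no measured value, but the list was drawn up with earlier results of these data known. They were followed in HepG2, a human liver carcinoma cell line, after 24 h with 1 of 8 herbal extracts. Each of the 40 symbols matched 1 of the 60675 Ensembl identifiers in the count table. All 40 were among the 13945 genes that passed the filter on low counts (at least 1 CPM, the count scaled to library size, in at least 3 of the 58 libraries).

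The ethanol extracts were Scutellariae Radix, Zingiberis Rhizoma (dried ginger), Zingiberis Rhizoma Recens (fresh ginger), Pinelliae Tuber, Coptidis Rhizoma and Zizyphi Fructus, and the hot water extracts were the formulas Sayeok-tang and Bojungikgi-tang. Doses were 20 µg/mL (low), 100 µg/mL (medium) and 500 µg/mL (high), except for Coptidis Rhizoma, of which 11.2 µg/mL (low) and 56 µg/mL (medium) were analysed. Most groups had 3 libraries. There were 2 at the high dose of dried ginger and at each dose of Bojungikgi-tang. Coptidis Rhizoma and Zizyphi Fructus were represented by a single library at each dose. Treated cells were set against cells given the vehicle (DMSO, 0.1% by the sample labels and a higher percentage by the series text), with 3 libraries. The sample labels give no DMSO percentage for treated cells. Any difference in solvent and the extract itself therefore cannot be told apart against vehicle. Nothing in the labels says that replicates were separate cultures, so p-values measure the spread between these libraries, which may be technical.

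A cell enters mitosis when cyclin B switches on the kinase CDK1, helped by CDC25 phosphatases and the kinase PLK1. Aurora kinases, kinesins and microtubule-binding proteins then build the spindle, and the spindle checkpoint holds the cell in metaphase until every chromosome is attached. The anaphase-promoting complex (APC/C) with CDC20 destroys cyclin B and securin to end mitosis, and midzone proteins close the cleavage furrow. The mRNAs of most of these proteins are low after division and peak in G2 and mitosis. Their promoters are known for CHR elements, read by the MuvB complex with B-MYB and FOXM1 or, as the DREAM repressor, with E2F4 and p130, and for CCAAT boxes bound by NF-Y. In bulk RNA, fewer cells in G2 and mitosis and less of an mRNA per such cell cannot be told apart.

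The promoters of 6 members that fell at the high doses of all 3 extracts described below, and of MAD2L1, whose differences were small, are shown to let these motifs be read beside the values. Each sequence is the 130 bases before the gene's RefSeq start (GRCh38.p14), 5′ to 3′ on the gene's strand, with capitals on the core CHR letters TTTGAA (or TTCAAA for the opposite strand) and on CCAAT (or ATTGG).
KIF20A: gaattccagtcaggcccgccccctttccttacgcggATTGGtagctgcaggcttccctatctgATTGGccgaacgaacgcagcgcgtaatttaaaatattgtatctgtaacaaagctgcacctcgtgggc
PLK1: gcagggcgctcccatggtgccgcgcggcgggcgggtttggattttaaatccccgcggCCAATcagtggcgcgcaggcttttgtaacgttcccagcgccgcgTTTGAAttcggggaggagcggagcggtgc
CCNB2: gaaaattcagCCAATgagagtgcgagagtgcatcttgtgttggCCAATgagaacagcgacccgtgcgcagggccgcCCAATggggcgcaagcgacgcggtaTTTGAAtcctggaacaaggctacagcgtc
CDCA8: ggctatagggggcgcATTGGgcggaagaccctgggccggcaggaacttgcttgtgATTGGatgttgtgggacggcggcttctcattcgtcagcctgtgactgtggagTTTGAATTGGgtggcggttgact
HMMR: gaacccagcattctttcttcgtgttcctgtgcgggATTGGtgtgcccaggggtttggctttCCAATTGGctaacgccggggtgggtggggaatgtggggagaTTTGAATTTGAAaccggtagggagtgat
MKI67: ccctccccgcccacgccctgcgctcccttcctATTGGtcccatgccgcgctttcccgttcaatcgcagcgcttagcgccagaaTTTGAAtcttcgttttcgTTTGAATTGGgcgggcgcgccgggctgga
MAD2L1: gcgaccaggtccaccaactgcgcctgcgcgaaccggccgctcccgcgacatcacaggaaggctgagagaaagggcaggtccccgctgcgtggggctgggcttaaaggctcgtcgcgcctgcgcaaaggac
The windows lie, in that order, at chr5:138178982-138179111 (plus strand), chr16:23678759-23678888 (plus), chr15:59105016-59105145 (plus), chr1:37692386-37692515 (plus), chr5:163460502-163460631 (plus), chr10:128126424-128126553 (minus) and chr4:120066849-120066978 (minus).

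TTTGAA began 29 bases before the start in PLK1 and CCNB2, 23 before it in CDCA8, 28 and 22 before it in HMMR, and 47 and 29 before it in MKI67. In CDCA8 and MKI67 it runs into an ATTGG that begins with its final A. KIF20A had ATTGG at 94 and 67 bases before the start and no TTTGAA in its promoter. The only TTTGAA of MAD2L1 lay after the start, from base 25, and its ATTGG lay 229 bases before the start. Both lie outside the printed window but inside the promoter as matched below, where MAD2L1 counts as holding both motifs. AURKB, CENPE, KIF2C, CCNA2, CCNB1, BUB1, NEK2 and PTTG1, which are not printed, also held no TTTGAA and fell at the high doses of the same extracts. CDC25B, not printed either, held none and fell with Scutellariae Radix and dried ginger, but did not pass the test with fresh ginger. The printed windows are examples, and no link between motif and fall was tested on them. RefSeq promoters (250 bases before to 50 after the start) were matched for 33 of the 40 members, with 43 promoters. Of these, 26 (60.5%) held TTTGAA on either strand, against 15.2% of all 35116 promoters. CCAAT on either strand was in 34 of the 43 (79.1%), against 34.6% of all promoters, and both motifs were in 53.5%, against 5.9%. Such matches describe letters in a window and are no measure of binding, and no other form of either motif was searched. TPX2, FOXM1, AURKA, TTK, BUB3, BIRC5 and UBE2C were not matched.

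Libraries held between 22143845 and 31859981 expected counts, with 24077535 to 26409029 in the vehicle libraries. All 6 hepatocyte-line markers were expressed in every library (ALB at 7831 to 11231 CPM). Of the markers of other cells, 4 of 6 fibroblast, 4 of 6 leukocyte and 4 of 5 endothelial genes stayed under 1 CPM in every library, with PTPRC, COL1A2 and DCN at 0. Summed hepatocyte-line markers were 16175 to 16379 CPM with high-dose Scutellariae Radix, 16102 to 16510 with dried ginger and 18677 to 19050 with fresh ginger, against 20349 to 21660 CPM in vehicle libraries. Fibroblast sums were 3.86 to 4.9, 12.1 to 12.6 and 20.7 to 24.2 CPM in the same order, against 10.2 to 11.8, and leukocyte sums 1687 to 1695, 1450 to 1463 and 2012 to 2325 CPM, against 1294 to 1373. Endothelial sums were 2.88 to 3.58, 2.71 to 2.84 and 3.34 to 3.81 CPM, against 3.57 to 4.44, and the part of these differences in the results below was not tested. COL1A1 passed 1 CPM in some libraries only (up to 1.41 CPM). PDGFRB (3.7 to 23.5 CPM), CD14 (1.1 to 2.84 CPM), PECAM1 (1.69 to 4.17 CPM) and LYZ (1151 to 2322 CPM) were above it in every library. LYZ made up nearly all of the leukocyte sums. All libraries are labelled as batch C, but the number that opens each sample code is shared by all libraries of an extract and by none of the vehicle. What that number stands for and the treatment therefore cannot be told apart against vehicle, while doses of an extract, both gingers, both formulas, and Scutellariae Radix with Pinelliae Tuber share it. Replicate 3 of the low doses of Scutellariae Radix and of dried ginger, and the Zizyphi Fructus low-dose library, stood apart from the others, and results that rest on them are given with and without them. Between the replicates of a group, counts differed by a chi-square of 2.18 to 9.44 per gene, and by 13.7 to 17.2 in pairs that hold 1 of those 2 replicates, so no pair agreed within counting noise.

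In vehicle cells the most abundant members per kilobase of exon were TOP2A, the topoisomerase that untangles sister chromatids, at 100 ± 2.31 CPM per kb (SD, n = 3), and TPX2, an activator of Aurora A, at 86.3 ± 1.5. AURKA followed at 73.1 ± 1.21, then CCNA2 at 62.7 ± 1.47 and CCNB1 at 62.5 ± 0.228, which did not differ beyond their spread. The lowest were CENPE at 5.54 ± 0.419 and KIF14 at 4.69 ± 0.29 CPM per kb. These levels depend on how RSEM splits reads between copies, which leaves PTTG1, KIF4A, MAD2L1, CDK1, CCNB1, UBE2C and BUB3, genes with known processed copies or near-identical relatives, less certain than the rest.

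The 40 genes were lower together at the high dose of 3 ethanol extracts, Scutellariae Radix, dried ginger and fresh ginger, and in the single library at the medium dose of Coptidis Rhizoma. At the high dose their summed level was 2704, 2778 and 2724 CPM with Scutellariae Radix, 2805 and 2789 CPM with dried ginger, and 3457, 3628 and 3587 CPM with fresh ginger, against 4674, 4775 and 4684 CPM in vehicle libraries. These were 58.1%, 59.4% and 75.5% of the vehicle mean. The high-dose libraries of these extracts lay below every vehicle library and below every library of their own lower doses. With Scutellariae Radix the sum was 4861 ± 48 CPM at the low, 4811 ± 58.7 at the medium and 2735 ± 38 at the high dose (SD, n = 3 each), so nearly the whole difference lay between 100 and 500 µg/mL. Dried ginger gave 4748 ± 97.7 CPM at the low (n = 3), 4943 ± 21.1 at the medium (n = 3) and 2797 ± 10.9 at the high dose (n = 2). Fresh ginger gave 4781 ± 56.3, 4567 ± 91.3 and 3557 ± 88.9 CPM in the same order (n = 3 each).

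**Figure D1:**
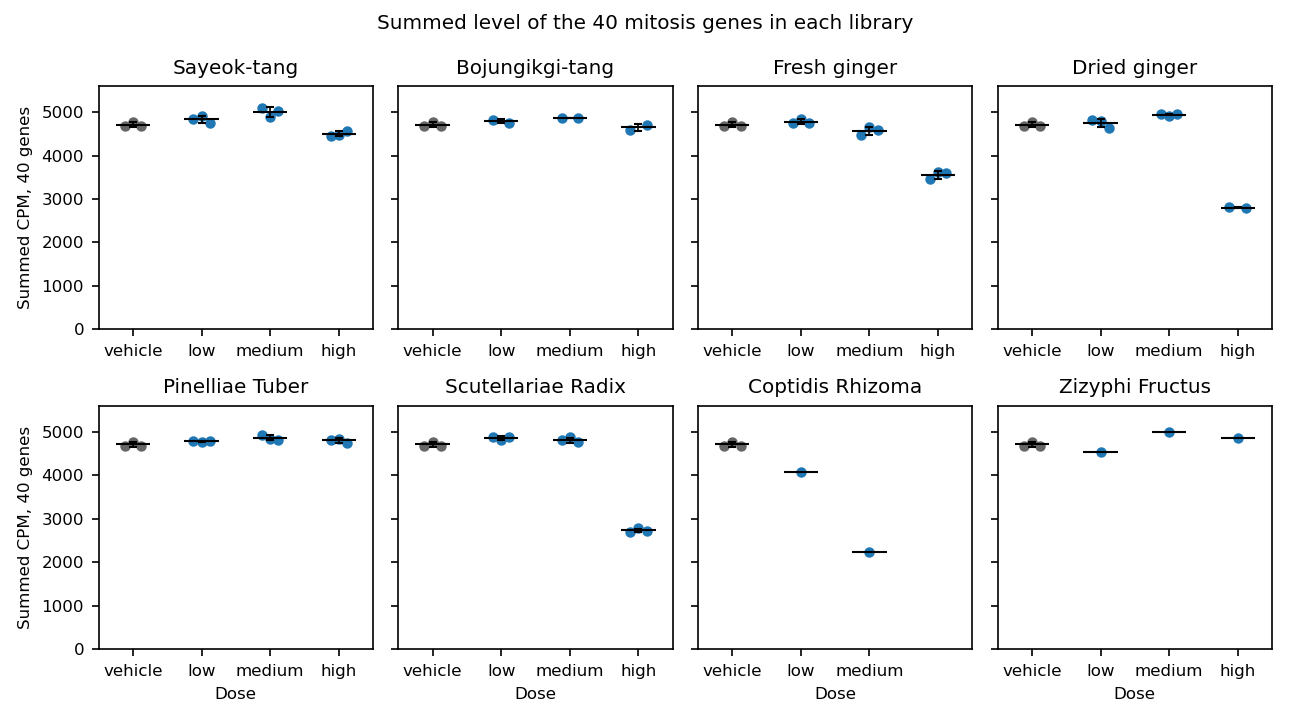
Summed level of the 40 mitosis genes in each library, in CPM, by extract and dose. Points are libraries, bars the mean and its SD, and vehicle libraries (grey) are repeated in each panel. The high doses of Scutellariae Radix (2735), dried ginger (2797) and fresh ginger (3557) and the medium dose of Coptidis Rhizoma (2230, 1 library) lie below the vehicle mean of 4711.

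At the high dose of Scutellariae Radix, 39 of the 40 genes fell and none rose against vehicle (edgeR's quasi-likelihood test with Benjamini-Hochberg adjustment over all genes, threshold 0.05), while 28.1% of all tested genes fell and 28.7% rose. Their median log2 fold change was -0.78, against 0.009 for all genes, and 5 members were lower by at least 1 log2 unit. Dried ginger gave 39 lower and none higher, with 22.8% of all genes lower and 23.3% higher, a median of -0.75 against 0.001, and 6 members lower by at least 1 log2 unit. Fresh ginger gave 35 lower and none higher, with 23.6% of all genes lower, 24.3% higher and a median of -0.41 against 0.003. All 40 genes lay below the vehicle libraries without overlap with Scutellariae Radix and with dried ginger, and 35 with fresh ginger, as did 31.3%, 32.6% and 25.9% of all tested genes. These 3 comparisons share the vehicle libraries. Each library of the comparison was also left out in turn. The call then held in every such fit for 39 of 39 genes with Scutellariae Radix, for 38 of 39 with dried ginger and for 32 of 35 with fresh ginger. MAD2L1 lost its call without dried ginger replicate 1. CDK1 lost it without fresh ginger replicate 1, CENPA without vehicle replicate 3, and ANLN without fresh ginger replicate 1 or vehicle replicates 2 or 3.

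**Figure D2:**
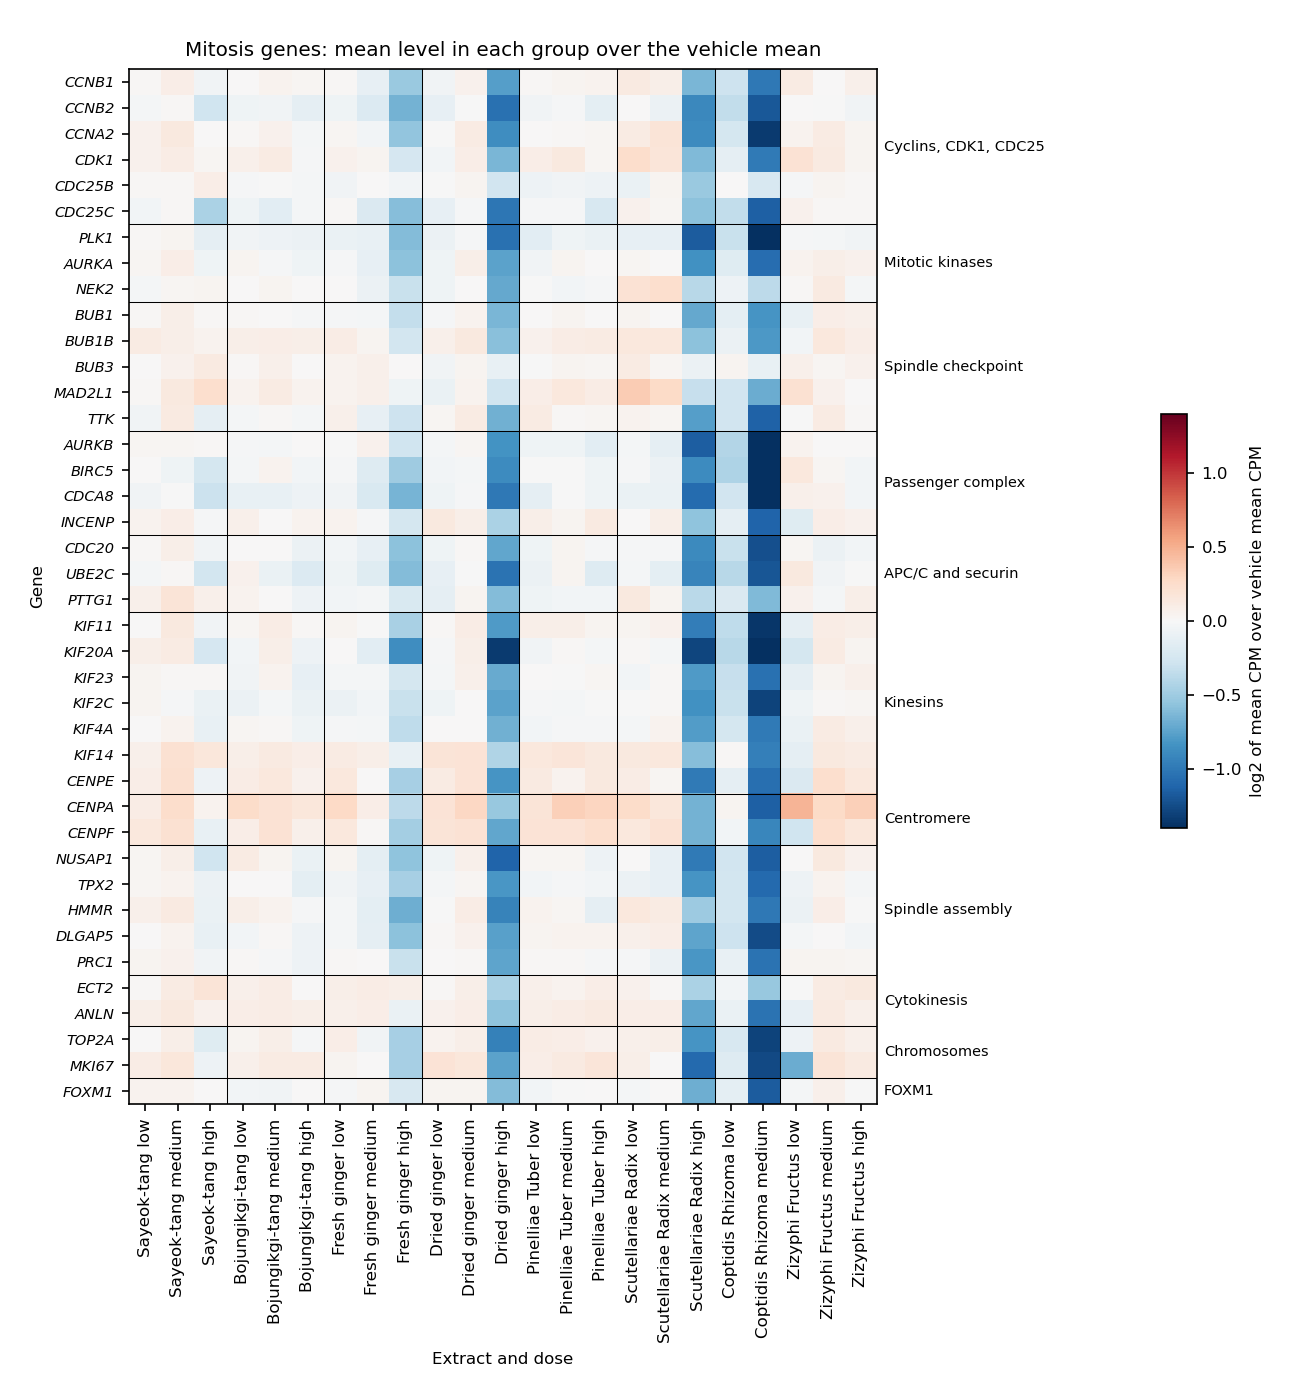
Heatmap of the 40 genes (rows, by role) in each treated group (columns, by extract and dose), as log2 of the group's mean CPM over the vehicle mean. Colour saturates at 1.4 log2 units, and KIF20A at the medium dose of Coptidis Rhizoma (-1.89, 1 library) lies beyond it. Blue columns stand at the high doses of fresh ginger, dried ginger and Scutellariae Radix and at the medium dose of Coptidis Rhizoma.

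The cyclins, their kinase and its phosphatases came first in the sequence of entry. All 6 fell with Scutellariae Radix and with dried ginger, and 5 of 6 with fresh ginger. Cyclin B1 (CCNB1, ENSG00000134057, chr5:69167010-69178245), the activating subunit of CDK1, had 103, 99.7 and 105 CPM with Scutellariae Radix, 93.7 and 93.9 CPM with dried ginger and 107, 114 and 114 CPM with fresh ginger, against 159, 160 and 160 CPM in vehicle cells. No treated library reached the vehicle range. Its log2 fold changes were -0.64 ± 0.039 (SE, edgeR adjusted p = 1.5e-18), -0.77 ± 0.045 (adjusted p = 7.4e-19) and -0.52 ± 0.039 (adjusted p = 2.8e-15), in the order Scutellariae Radix, dried ginger and fresh ginger, which holds wherever 3 changes are given below. Cyclin B2 (CCNB2) changed more, by -0.90 ± 0.055, -1.05 ± 0.064 and -0.66 ± 0.054. Cyclin A2 (CCNA2), which serves S phase as well as mitosis, had 96.1, 99.4 and 89.2 CPM with Scutellariae Radix, 97 and 94.4 CPM with dried ginger and 112, 123 and 122 CPM with fresh ginger, against 173, 180 and 173 CPM in vehicle cells.

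CDK1 itself, the kinase, fell as well, with changes of -0.62 ± 0.071, -0.63 ± 0.081 and -0.23 ± 0.07. The phosphatases that remove its inhibitory phosphates did not move alike. CDC25C, which acts at mitotic entry, had 13.2, 13.6 and 14.4 CPM with Scutellariae Radix, 9.8 and 10.5 CPM with dried ginger and 13.4, 13.8 and 13.6 CPM with fresh ginger, against 21.6, 19.5 and 20.4 CPM in vehicle cells. Every treated library lay below the vehicle libraries, and the dried ginger libraries were lowest (log2 fold change -1.01 ± 0.071, edgeR adjusted p = 3.1e-16). CDC25B, which acts earlier, changed by -0.52 ± 0.044 with Scutellariae Radix and by -0.27 ± 0.049 with dried ginger, and its difference of -0.03 ± 0.043 with fresh ginger did not pass the test (edgeR adjusted p = 0.54).

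All 3 mitotic kinases of the list fell in all 3 extracts. PLK1 (ENSG00000166851, chr16:23677656-23690367), which activates CDC25C and matures the spindle poles, had 124, 120 and 124 CPM with Scutellariae Radix, 139 and 128 CPM with dried ginger and 190, 181 and 171 CPM with fresh ginger, against 274, 268 and 283 CPM in vehicle cells. The groups did not overlap, and the changes were -1.16 ± 0.043 (edgeR adjusted p = 2.0e-26), -1.05 ± 0.05 (2.9e-22) and -0.61 ± 0.042 (1.7e-16). AURKA, the spindle-pole aurora kinase, changed by -0.85 ± 0.038, -0.75 ± 0.043 and -0.57 ± 0.037. NEK2, which separates the centrosomes, changed less with Scutellariae Radix (-0.39 ± 0.063) than with dried ginger (-0.72 ± 0.075), and by -0.31 ± 0.063 with fresh ginger.

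The chromosomal passenger complex corrects faulty attachments and later directs cytokinesis, and all 4 of its genes fell in all 3 extracts. AURKB, its kinase (ENSG00000178999, chr17:8204733-8210600), had 31.5, 27.9 and 29.5 CPM with Scutellariae Radix, 37.8 and 35.8 CPM with dried ginger and 56.8, 52 and 53.3 CPM with fresh ginger, against 65.8, 62.9 and 68.3 CPM in vehicle cells. Its changes of -1.15 ± 0.056, -0.84 ± 0.063 and -0.28 ± 0.053 spanned the widest gap between extracts among the kinases. CDCA8 (borealin) changed by -1.07 ± 0.037, -0.99 ± 0.043 and -0.66 ± 0.036, and BIRC5 (survivin) by -0.89 ± 0.042, -0.88 ± 0.049 and -0.50 ± 0.042. INCENP, the scaffold, changed least, by -0.56 ± 0.059, -0.44 ± 0.067 and -0.24 ± 0.058.

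The spindle checkpoint list holds BUB3, the member nearest to 0 with Scutellariae Radix, dried ginger and fresh ginger. Of its 5 genes, 4 fell with Scutellariae Radix and with dried ginger and 3 with fresh ginger. TTK, the kinase that starts the checkpoint signal, had 20.2, 18.5 and 18.6 CPM with Scutellariae Radix, 18.9 and 22.2 CPM with dried ginger and 25.8, 27.5 and 26.7 CPM with fresh ginger, against 33.3, 33.1 and 31.7 CPM in vehicle cells, with no overlap. BUB1, a kinetochore kinase, changed by -0.71 ± 0.035, -0.63 ± 0.04 and -0.33 ± 0.034, and BUB1B (BubR1) by -0.58 ± 0.037, -0.58 ± 0.043 and -0.25 ± 0.037. MAD2L1, whose protein blocks CDC20, changed by -0.32 ± 0.077 with Scutellariae Radix and -0.28 ± 0.087 with dried ginger, and its difference of -0.06 ± 0.076 with fresh ginger did not pass the test (edgeR adjusted p = 0.57).

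BUB3, the partner of BUB1 and BubR1, was the 1 member whose difference passed the test against vehicle in none of the 3. It had 128, 127 and 128 CPM with Scutellariae Radix, 127 and 126 CPM with dried ginger and 129, 137 and 140 CPM with fresh ginger, against 137, 133 and 135 CPM in vehicle cells. The edgeR adjusted p-values were 0.082, 0.078 and 0.98. Scutellariae Radix and dried ginger libraries nevertheless lay below every vehicle library, as did 31.3% and 32.6% of all tested genes. Against its own low dose the change with Scutellariae Radix was -0.19 ± 0.04 (edgeR adjusted p = 5.6e-05). The low-dose libraries had 137, 141 and 161 CPM, and the highest was replicate 3, which stood apart and enlarges this change. The call held when each library was left out in turn, that replicate included.

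The 3 genes of mitotic exit fell in all 3 extracts. CDC20, the activator of the APC/C, had 60.2, 60.6 and 64.1 CPM with Scutellariae Radix, 68.2 and 70.1 CPM with dried ginger and 79.5, 74.2 and 76.3 CPM with fresh ginger, against 115, 114 and 111 CPM in vehicle cells. UBE2C, the ubiquitin-conjugating enzyme of the APC/C, changed by -0.92 ± 0.058, -1.04 ± 0.068 and -0.61 ± 0.057. PTTG1 (securin), the inhibitor of separase, changed by -0.37 ± 0.066, -0.61 ± 0.077 and -0.22 ± 0.065.

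Of the 7 kinesins, all fell with Scutellariae Radix and dried ginger and 6 with fresh ginger. KIF20A (ENSG00000112984, chr5:138178719-138187715), which carries the passenger complex to the midzone, showed the largest fall of the 40 in each of the 3 comparisons. It had 29.6, 32.2 and 32.4 CPM with Scutellariae Radix, 31.3 and 29.1 CPM with dried ginger and 42.6, 42.4 and 40.6 CPM with fresh ginger, against 75, 76 and 79.1 CPM in vehicle cells. The changes were -1.29 ± 0.042 (edgeR adjusted p = 1.8e-28), -1.34 ± 0.05 (3.6e-26) and -0.87 ± 0.041 (2.1e-22). KIF11 (Eg5), which pushes the spindle poles apart, changed by -0.98 ± 0.049, -0.79 ± 0.055 and -0.46 ± 0.047, and CENPE, which moves chromosomes to the spindle equator, by -0.99 ± 0.057, -0.83 ± 0.065 and -0.47 ± 0.055. KIF23 (MKLP1), of the central spindle, changed by -0.79 ± 0.044, -0.70 ± 0.05 and -0.24 ± 0.042. KIF2C and KIF4A fell in all 3 as well, and KIF14, of the midbody, changed by -0.59 ± 0.054 with Scutellariae Radix and -0.42 ± 0.061 with dried ginger. Its difference of -0.11 ± 0.053 with fresh ginger did not pass the test (edgeR adjusted p = 0.09).

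**Figure D3:**
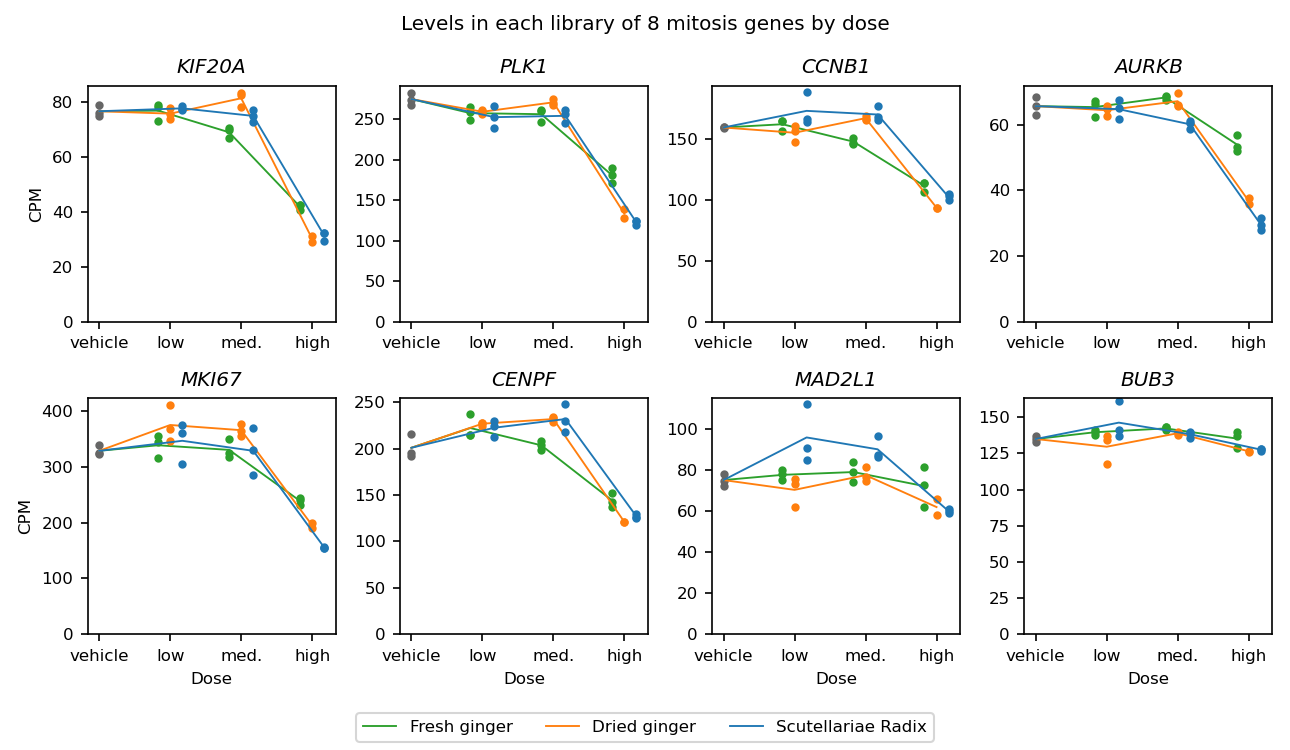
CPM of 8 mitosis genes in each library (points) by dose, with lines through the group means, for fresh ginger, dried ginger and Scutellariae Radix. Grey points are the vehicle libraries shared by the 3 extracts. KIF20A, PLK1, CCNB1, AURKB, MKI67 and CENPF drop between the medium and the high dose, and BUB3 stays between 118 and 161 CPM. These BUB3 limits are replicate 3 of the low doses of dried ginger (118) and Scutellariae Radix (161), libraries that stood apart.

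The 5 spindle assembly genes fell in all 3 extracts. TPX2 had 171, 178 and 176 CPM with Scutellariae Radix, 180 and 175 CPM with dried ginger and 222, 230 and 227 CPM with fresh ginger, against 306, 317 and 310 CPM in vehicle cells. NUSAP1, which bundles microtubules around chromosomes, changed by -0.99 ± 0.043, -1.12 ± 0.05 and -0.56 ± 0.042. HMMR, which ties spindle poles to TPX2, had 32, 36.2 and 36.7 CPM with Scutellariae Radix, 25.5 and 26.7 CPM with dried ginger and 28, 32.8 and 32.7 CPM with fresh ginger, against 49.5, 50.2 and 49.7 CPM in vehicle cells. For HMMR the Scutellariae Radix change (-0.51 ± 0.06) was nearer to 0 than that of fresh ginger (-0.68 ± 0.061), although the difference between these extracts was not tested. DLGAP5 and PRC1, which crosslinks midzone microtubules, fell in all 3.

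Of the centromere genes, CENPA, the histone of the centromere, changed by -0.66 ± 0.12, -0.53 ± 0.13 and -0.37 ± 0.11, and CENPF, a G2 kinetochore protein, had 125, 130 and 126 CPM with Scutellariae Radix, 121 and 121 CPM with dried ginger and 137, 143 and 152 CPM with fresh ginger, against 195, 216 and 192 CPM in vehicle cells. In the cytokinesis pair, ANLN (anillin), which scaffolds the contractile ring, changed by -0.73 ± 0.041, -0.56 ± 0.046 and -0.09 ± 0.04, and ECT2, which activates RhoA at the furrow, by -0.44 ± 0.048 and -0.44 ± 0.054. With fresh ginger ECT2 was at 84.7, 99 and 97.2 CPM, against 85.9, 90.3 and 88.6 CPM in vehicle cells, and the difference of 0.09 ± 0.046 did not pass the test (edgeR adjusted p = 0.13), although it was called higher without fresh ginger replicate 1.

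The proliferation antigen Ki-67 (MKI67, ENSG00000148773, chr10:128096659-128126385), which coats mitotic chromosomes, had 155, 157 and 154 CPM with Scutellariae Radix, 200 and 190 CPM with dried ginger and 244, 241 and 231 CPM with fresh ginger, against 324, 339 and 323 CPM in vehicle cells. The groups were fully separate and stood in the same order as for AURKB, with changes of -1.08 ± 0.069, -0.75 ± 0.077 and -0.46 ± 0.067. TOP2A changed by -0.83 ± 0.036, -0.95 ± 0.042 and -0.47 ± 0.036. FOXM1, the transcription factor of the G2 programme, changed by -0.69 ± 0.044, -0.61 ± 0.05 and -0.22 ± 0.044.

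The size of the fall was set beside the presence of TTTGAA in the promoter. With Scutellariae Radix the median log2 fold change was -0.74 over the 23 matched members that hold it and -0.77 over the 10 that do not. With dried ginger these medians were -0.73 and -0.76, and with fresh ginger -0.46 and -0.32. No test was made of these differences.

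Comparisons of the high with the low dose stay within 1 extract. All 40 genes were lower with Scutellariae Radix (edgeR, 28.5% of all genes lower and 27.2% higher), 38 with dried ginger (24.3% lower and 23.2% higher) and 36 with fresh ginger (24.3% lower and 23.3% higher), with no member higher in any of them. Leaving out each library in turn cost 1 of these calls, that of PTTG1 with fresh ginger. The median log2 fold changes were -0.82, -0.73 and -0.44. KIF20A led each of the 3, with -1.31 ± 0.042 for Scutellariae Radix, -1.33 ± 0.049 for dried ginger and -0.88 ± 0.041 for fresh ginger. With Scutellariae Radix, MKI67 (-1.16 ± 0.069), AURKB (-1.12 ± 0.056), CENPE (-1.10 ± 0.057) and PLK1 (-1.04 ± 0.043) came next. With dried ginger they were NUSAP1 (-1.06 ± 0.05), TOP2A (-0.99 ± 0.042), PLK1 (-0.96 ± 0.049) and MKI67 (-0.94 ± 0.077), and with fresh ginger HMMR (-0.65 ± 0.06), CENPA, CENPF (-0.63 ± 0.046) and CENPE (-0.62 ± 0.054). Against the low dose the centromere genes of fresh ginger moved more than against vehicle, with CENPA at 19.1 ± 1.69 CPM at the high and 29.8 ± 0.937 CPM at the low dose (SD, n = 3 each) and a change of -0.64 ± 0.11 (adjusted p = 5.0e-06). Against the medium dose, all 40 genes were again lower at the high dose of Scutellariae Radix (27.1% of all genes lower and 26.8% higher), with a median of -0.81. KIF20A (-1.26 ± 0.042), MKI67 (-1.08 ± 0.069), CCNA2 (-1.06 ± 0.041), PLK1 (-1.05 ± 0.043) and CENPE (-1.03 ± 0.057) fell furthest.

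Fresh and dried ginger were tested against each other at 500 µg/mL. The labels do not say whether the extracts were made from the same rhizome material. Of the 40 genes, 37 were higher with fresh than with dried ginger and none was lower (edgeR, 13.2% of all genes higher and 10.2% lower), with a median difference of 0.36 log2 units against 0.002 over all genes. The largest differences were in NUSAP1 (48.4 ± 2.27 CPM with fresh ginger, n = 3, and 32.9 ± 0.0897 CPM with dried ginger, n = 2), at 0.56 ± 0.051 (adjusted p = 6.7e-12), AURKB (0.55 ± 0.063), ECT2 (0.52 ± 0.054), TOP2A (0.48 ± 0.041) and ANLN (0.47 ± 0.046). BUB3 (0.10 ± 0.045), MAD2L1 (0.22 ± 0.087) and CENPA (0.17 ± 0.14) did not pass. The call held for 32 of the 37 when each library was left out in turn. INCENP lost it without fresh ginger replicate 1 or either dried ginger replicate, DLGAP5 without fresh ginger replicates 2 or 3 or either dried ginger replicate, HMMR without fresh ginger replicate 2 or dried ginger replicate 1, CDC20 without dried ginger replicate 1 and MKI67 without dried ginger replicate 2.

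Scutellariae Radix and dried ginger, with nearly the same summed level, were also set against each other. Their sample codes open with different numbers, so that number and the extract cannot be told apart here. Scutellariae Radix was higher for 6 members and lower for 7 (edgeR, 15.3% of all genes higher and 15.9% lower), with a median difference of -0.06 log2 units. The members' share of calls was thus near that of all genes. CDC25C was higher with Scutellariae Radix by 0.44 ± 0.074 (13.8 ± 0.611 CPM, n = 3, and 10.2 ± 0.53 CPM with dried ginger, n = 2, adjusted p = 6.8e-06), HMMR by 0.42 ± 0.073 (adjusted p = 1.0e-05) and NEK2 by 0.33 ± 0.076 (adjusted p = 5.4e-04). MKI67 was lower by 0.33 on the log2 scale (-0.33 ± 0.077, 155 ± 1.6 CPM and 195 ± 7.49 CPM, adjusted p = 7.2e-04), AURKB at -0.31 ± 0.066 (adjusted p = 2.3e-04), CDC25B at -0.26 ± 0.05 and CDC20 at -0.17 ± 0.041. The 7 genes just given kept the call without any 1 library. PTTG1 (0.23 ± 0.078), CCNB1 (0.13 ± 0.046) and TOP2A (0.12 ± 0.041) on the higher side and KIF11 (-0.19 ± 0.057), KIF14 (-0.17 ± 0.063) and ANLN (-0.16 ± 0.047) on the lower side lost it in at least 1 such fit: PTTG1 without dried ginger replicate 2 or Scutellariae Radix replicate 3, KIF11 and ANLN without dried ginger replicate 1, TOP2A without either dried ginger replicate or Scutellariae Radix replicate 2, and CCNB1 and KIF14 without either dried ginger replicate or Scutellariae Radix replicates 1 or 3.

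**Figure D4:**
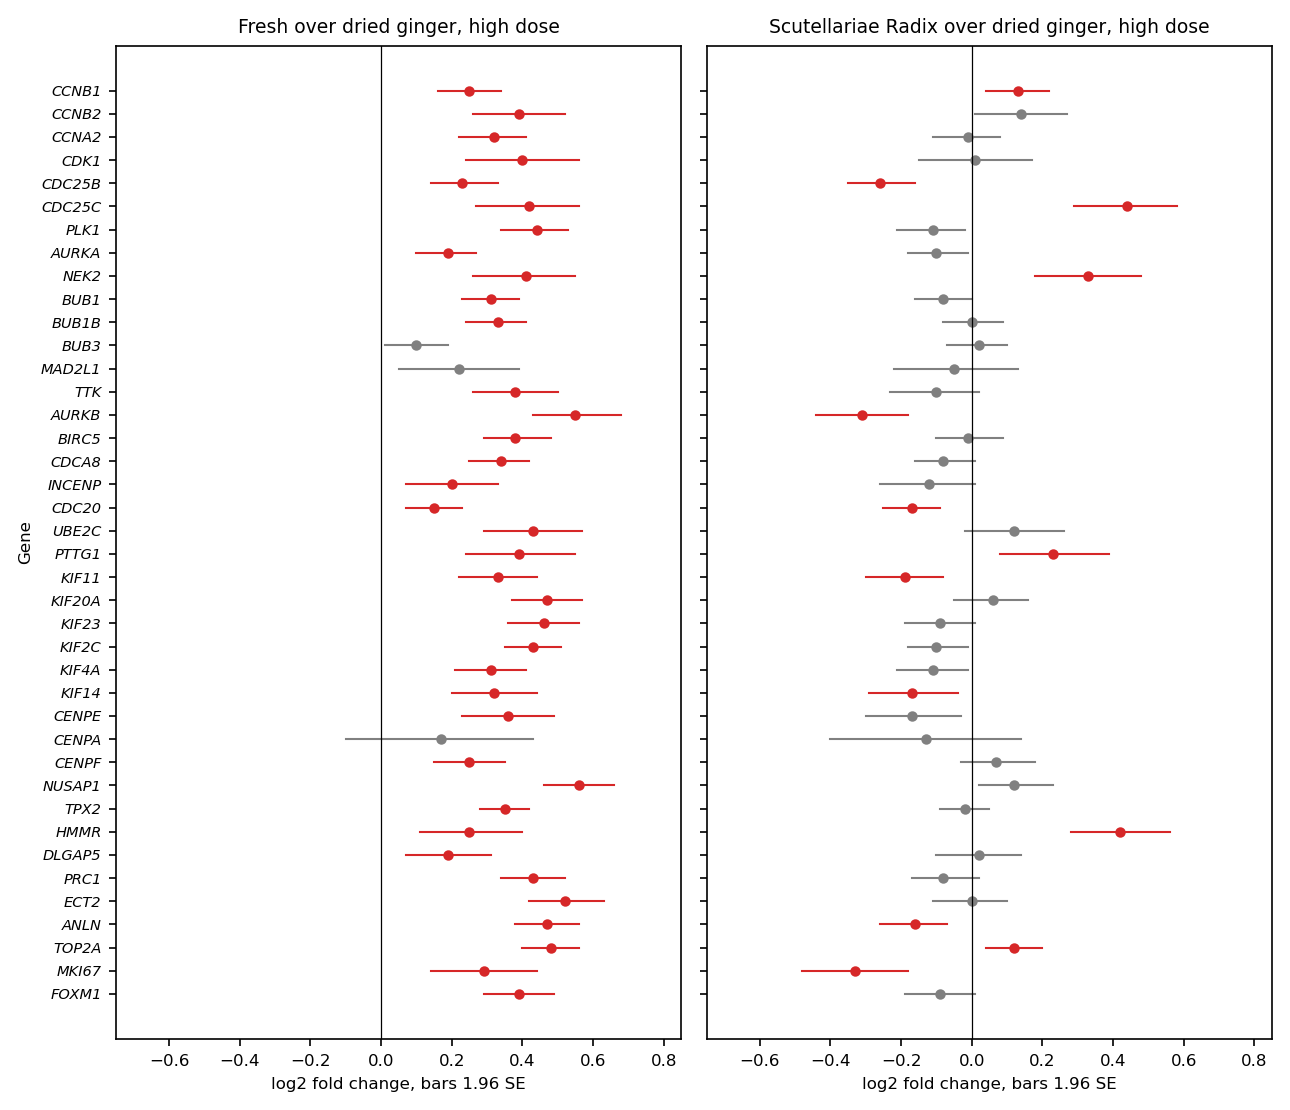
Log2 fold change of each of the 40 genes between extracts at the high dose, fresh over dried ginger (left panel) and Scutellariae Radix over dried ginger (right panel), with bars for the 95% interval. Red marks genes past an edgeR adjusted p of 0.05. In the first comparison 37 genes are called and lie right of 0, and in the second 6 are called right of 0 and 7 left of it.

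Pinelliae Tuber shares its code number with Scutellariae Radix. At 500 µg/mL, all 40 genes were lower with Scutellariae Radix than with Pinelliae Tuber (edgeR, 28.7% of all genes lower and 27.2% higher), with a median of -0.80 and changes between -1.26 (KIF20A) and -0.11 (BUB3, adjusted p = 0.016, lost without Pinelliae Tuber replicate 1). Next to KIF20A came MKI67 (-1.25 ± 0.069), CENPE (-1.13 ± 0.056), PLK1 (-1.06 ± 0.043) and CDCA8 (-1.01 ± 0.037). MKI67 was at 155 ± 1.6 CPM with Scutellariae Radix and 369 ± 9.76 CPM with Pinelliae Tuber (SD, n = 3 each).

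The high dose of Sayeok-tang split the list. Of the 40 genes, 13 fell and 4 rose against vehicle (edgeR, 19.9% of all genes lower and 20.3% higher), with a median of -0.05, so the count called, 17, was close to the 40.2% of all genes that changed. CDC25C had 15.5, 15.7 and 14 CPM with Sayeok-tang, against 21.6, 19.5 and 20.4 CPM in vehicle cells, a change of -0.44 ± 0.058 (adjusted p = 2.3e-08) with no overlap. CDCA8 (-0.30 ± 0.035), NUSAP1 (-0.29 ± 0.041), CCNB2 (-0.28 ± 0.053) and UBE2C (-0.25 ± 0.055) followed, and KIF20A, BIRC5 and TOP2A fell by smaller amounts. Among those that rose, MAD2L1 had 90.7, 87 and 86.8 CPM with Sayeok-tang, against 77.9, 74.7 and 72.2 CPM in vehicle cells (0.23 ± 0.075, adjusted p = 0.01). ECT2 was at 0.19 ± 0.046, KIF14 at 0.16 ± 0.051 and BUB3 at 0.12 ± 0.04. CCNB1 (-0.04 ± 0.039), CDK1 (0.03 ± 0.069) and FOXM1 (0.00 ± 0.043) did not pass. The calls of CDC25C, CDCA8, NUSAP1, CCNB2, UBE2C, KIF20A, BIRC5, TOP2A and ECT2 held when each library was left out, and those of the other 8 did not. Without Sayeok-tang high replicate 2, 11 members were called.

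Against its own low dose, the high dose of Sayeok-tang gave 17 members lower and 3 higher (edgeR, 19.3% of all genes lower and 18.4% higher), led by CDC25C (-0.40 ± 0.058), KIF20A (-0.32 ± 0.039), NUSAP1 (-0.31 ± 0.041), CENPF (-0.26 ± 0.045) and CDCA8 (-0.25 ± 0.035). MAD2L1 (0.22 ± 0.075), ECT2 (0.18 ± 0.046) and BUB3 (0.11 ± 0.04) were the ones higher. When each library was left out in turn, 12 of the 20 calls held, and those of MAD2L1 and BUB3 were among the 8 that did not. Against the medium dose, 23 were lower and none higher (14.7% of all genes lower and 14.1% higher, median -0.14), led by CDC25C (-0.46 ± 0.058), NUSAP1 (-0.37 ± 0.041), KIF20A (-0.35 ± 0.039), CENPF (-0.32 ± 0.045) and CDCA8 (-0.30 ± 0.035). Against Bojungikgi-tang at the same dose, the formula that shares its code number, 7 were lower and 3 higher (13% of all genes lower and 13.2% higher). CDC25C was at 15.1 ± 0.919 CPM with Sayeok-tang (n = 3) and 20.1 ± 1.16 CPM with Bojungikgi-tang (n = 2), a difference of -0.42 ± 0.065 (adjusted p = 2.2e-06). CDCA8 (-0.23 ± 0.039), BIRC5 (-0.20 ± 0.046), NUSAP1 (-0.19 ± 0.046), CENPF (-0.18 ± 0.051), KIF20A and TOP2A were the others lower, and ECT2 (0.18 ± 0.052), KIF23 (0.13 ± 0.047) and CDC25B (0.13 ± 0.048) were higher. The calls of CDC25C, CDCA8, NUSAP1 and TOP2A held when each library was left out, and the other 6, among them all those higher, did not.

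At the medium dose of Sayeok-tang, 5 members rose and none fell (edgeR, 2.17% of all genes higher and 2.04% lower). They were CENPE (0.22 ± 0.053), KIF14 (0.21 ± 0.052), CENPF (0.21 ± 0.045), ANLN (0.14 ± 0.04) and CCNA2 (0.14 ± 0.04). CENPF had 241, 230 and 227 CPM with Sayeok-tang, against 195, 216 and 192 CPM in vehicle cells. This count rested on single libraries: it was 2 without vehicle replicate 1, 1 without vehicle replicate 3, 1 without Sayeok-tang medium replicate 1 and 8 without Sayeok-tang medium replicate 2. At the low dose no member was called by edgeR (0.0143% of all genes higher and 0.043% lower) or by DESeq2, with 3 higher and none lower at an unadjusted p under 0.05 (4.28% and 3.26% of all genes).

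At the medium dose of fresh ginger, 10 members fell and none rose (edgeR, 4.66% of all genes lower and 6.63% higher). CDCA8 had 57.4, 55.4 and 56.5 CPM with fresh ginger, against 64.4, 65.7 and 66.1 CPM in vehicle cells (-0.21 ± 0.035, adjusted p = 1.9e-05), with no overlap. CDC25C (-0.20 ± 0.058), BIRC5 (-0.19 ± 0.041), CCNB2 (-0.19 ± 0.053), UBE2C (-0.17 ± 0.056) and KIF20A (-0.15 ± 0.04) were among the others, and NUSAP1, AURKA, CDC20 and TPX2 completed the 10. CDCA8 and BIRC5 kept the call whichever library was left out. The count was 5 without vehicle replicate 1, 4 without fresh ginger medium replicate 1 and 6 without replicate 3 of that group. At the low dose of fresh ginger none was called by edgeR (0.509% of all genes higher and 0.0932% lower) or by DESeq2, with 6 higher and 2 lower at an unadjusted p under 0.05 (6.55% and 3.85% of all genes).

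At doses below 500 µg/mL, a few members were slightly higher with Scutellariae Radix. At 20 µg/mL 6 rose and none fell (edgeR, 5.44% of all genes higher and 4.87% lower), and at 100 µg/mL 6 rose and 3 fell (8.99% higher and 9.33% lower). The count at 100 µg/mL was thus close to the share of all genes called. MAD2L1 had 77.9, 74.7 and 72.2 CPM in vehicle cells, 90.4, 84.6 and 112 CPM at the low, 86.9, 86.3 and 96.5 CPM at the medium and 61, 59.7 and 58.8 CPM at the high dose. The low and medium libraries lay above the vehicle libraries and the high-dose libraries below them. Its changes against vehicle were 0.35 ± 0.075 (adjusted p = 0.0015) and 0.26 ± 0.075 (adjusted p = 0.0099) at the low and medium doses. NEK2 (0.20 ± 0.06 and 0.23 ± 0.06), CENPF (0.15 ± 0.045 and 0.20 ± 0.045) and BUB1B (0.15 ± 0.036 at both doses) rose at both doses, CDK1 (0.25 ± 0.068) and CCNB1 (0.12 ± 0.038) at the low dose, and CCNA2 (0.17 ± 0.04) and KIF14 (0.15 ± 0.052) at the medium dose. NUSAP1 (-0.12 ± 0.041), TPX2 (-0.11 ± 0.031) and CDCA8 (-0.10 ± 0.035) fell at the medium dose. CENPF was also called higher with Sayeok-tang medium, dried ginger medium and low, and Pinelliae Tuber high. All these calls share the same vehicle libraries (195, 216 and 192 CPM), so they are not separate results. The Zizyphi Fructus high- and medium-dose libraries had 224 and 236 CPM.

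The low-dose calls of Scutellariae Radix turned on replicate 3, 1 of the libraries that stood apart, in which CDK1 was at 121 CPM beside 91.8 and 91 in the other replicates. Without it 1 member was called, and the calls of MAD2L1 and CDK1 were lost. Without vehicle replicate 1, or without vehicle replicate 3, 3 were called. Without all 3 libraries that stood apart, 2 were called. None of the 6 low-dose calls held in every fit that left out 1 library. At the medium dose the count was 5 without vehicle replicate 3, and MAD2L1 lost its call without that library or without Scutellariae Radix medium replicate 3. Of the 9 calls at that dose, 5 held whichever library was left out.

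Dried ginger at the medium dose gave 3 members higher and none lower (edgeR, 0.703% of all genes higher and 0.746% lower): CENPF (0.20 ± 0.045), KIF14 (0.19 ± 0.051) and BUB1B (0.14 ± 0.036). None was called without vehicle replicate 1 or 3, and 1 was called without any of its own 3 replicates. At the low dose CENPF alone was called (0.17 ± 0.045, 1.69% of all genes higher and 0.43% lower), and none without vehicle replicates 1 or 3 or dried ginger low replicates 1 or 3, while 2 were called without vehicle replicate 2 or dried ginger low replicate 2.

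Pinelliae Tuber at the high dose gave 3 members higher and 2 lower (edgeR, 9.14% of all genes higher and 6.57% lower). CENPF was at 240, 242 and 226 CPM with Pinelliae Tuber, against 195, 216 and 192 CPM in vehicle cells (0.23 ± 0.045, adjusted p = 2.8e-04), and ANLN and BUB1B were higher by 0.12 ± 0.039 and 0.11 ± 0.036. CDC25C (-0.23 ± 0.057) and UBE2C (-0.18 ± 0.055) were lower. The count was 2, 8 and 3 without vehicle replicates 1, 2 and 3 in turn, 3 without Pinelliae Tuber high replicate 1 and 2 without replicate 2. It was 8 without the 3 libraries that stood apart. Against its own low dose, 2 members were lower at the high dose and none higher (4.98% of all genes lower and 5.09% higher), CDC25C at -0.21 ± 0.057 and HMMR at -0.17 ± 0.058. Neither was called without high replicate 1 or without low replicate 2, and CDC25C alone was called without high or low replicate 3. At the medium and low doses edgeR called none against vehicle (0.122% and 0.237% of all genes higher, 0.165% and 0.0359% lower), DESeq2 called 1 and 2, and an unadjusted p under 0.05 was reached by 7 higher members at the medium dose (6.58% of all genes higher and 4.19% lower) and by 6 higher and 2 lower at the low dose (7.06% and 4.57%).

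Bojungikgi-tang had the fewest calls at the high dose among the extracts with replicates. TPX2, the Aurora A activator, was the 1 member called, with 270 and 296 CPM at the high dose, against 306, 317 and 310 CPM in vehicle cells (-0.14 ± 0.035, edgeR adjusted p = 0.014, with 2.31% of all genes lower and 2.24% higher). It was lost without vehicle replicate 2 or without the lower of the treated libraries, replicate 2. The 95% intervals of the 40 log2 fold changes lay between -0.31 and 0.40. At the medium dose edgeR called none (0.0215% of all genes higher and 0.043% lower) and DESeq2 1, with 6 higher and 2 lower at an unadjusted p under 0.05 (5% and 3.74% of all genes), and at the low dose neither called any (0% of all genes in each direction by edgeR), with 2 higher and 1 lower at that unadjusted threshold (3.46% and 2.6% of all genes). High against low dose gave 3 lower (UBE2C at -0.25 ± 0.068, NUSAP1 at -0.21 ± 0.05 and TPX2 at -0.15 ± 0.038, with 0.875% of all genes lower and 0.81% higher), and none of them was called without high replicate 2, low replicate 2 or low replicate 3.

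Coptidis Rhizoma had 1 library per dose, so no test was made and its values have no replicate check. At 56 µg/mL all 40 genes lay below the range of the vehicle libraries, as did 41.5% of all tested genes, and 37 were at least 0.5 log2 units below the vehicle mean, as were 12.6% of all tested genes. The median difference was -1.10 log2 units, against 0.01 for all genes, and the summed level of 2230 CPM was the lowest of any library. KIF20A was at 20.7 CPM, against 75 to 79.1 CPM in vehicle cells (-1.89). PLK1 was at 102 CPM, against 268 to 283 CPM, and MKI67 at 137 CPM, against 323 to 339 CPM. BUB3 at 126 CPM, CDC25B and NEK2 were the 3 that lay less than 0.5 log2 units below the vehicle mean. At 11.2 µg/mL none passed 0.5 log2 units (3.49% of all genes did, downwards), and 34 of the 40 lay below the vehicle range, as did 35.1% of all tested genes, with a median of -0.24.

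In both Coptidis Rhizoma libraries the mitochondrial genes held a larger share of counts, 17.3% at the medium and 20.1% at the low dose, against 8.67% to 9.53% in vehicle libraries, and the part of this in the result was not tested.

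**Figure D5:**
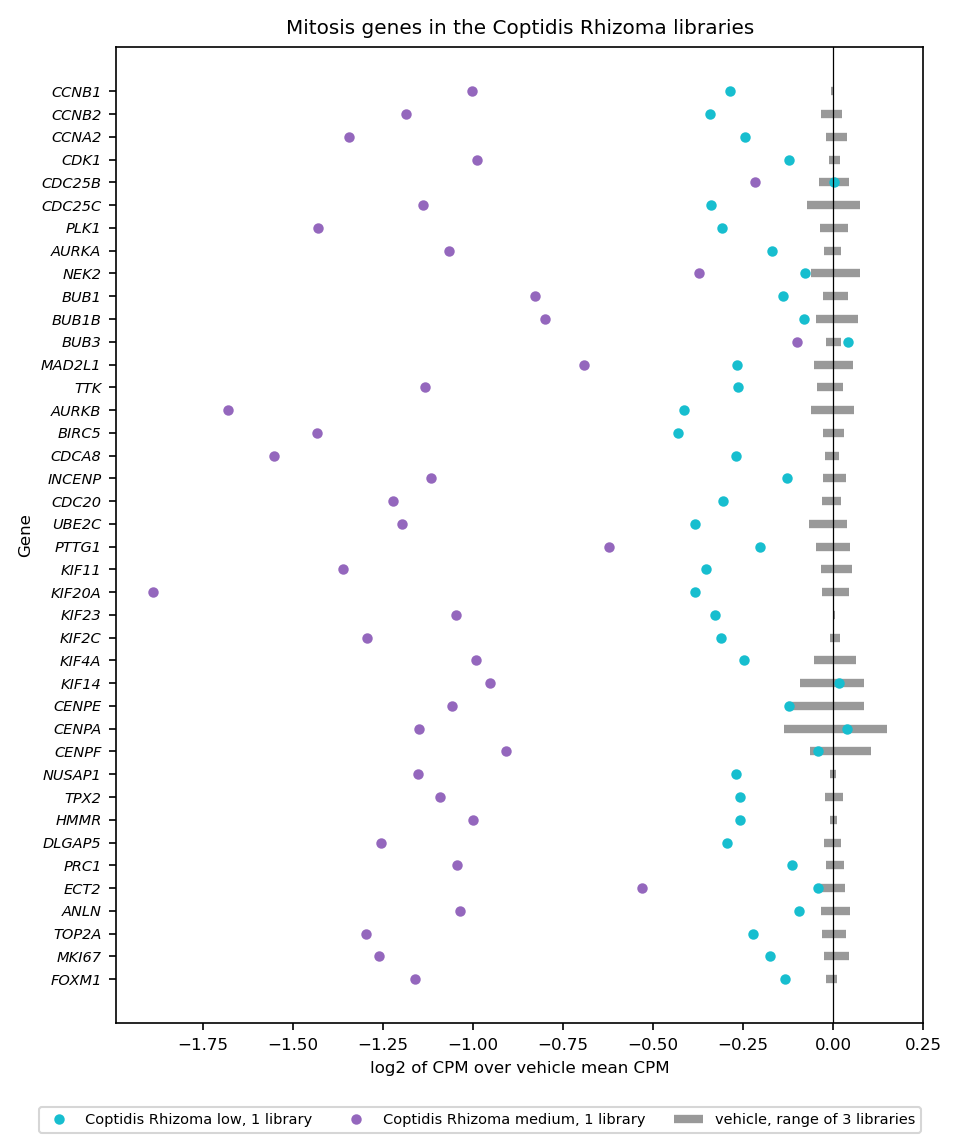
Log2 of CPM over the vehicle mean for the 40 genes in the 2 Coptidis Rhizoma libraries (points), with the range of the 3 vehicle libraries as a grey bar. At the medium dose all 40 points lie left of the bar, KIF20A furthest at -1.89, and at the low dose 34 do.

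Zizyphi Fructus, also with 1 library per dose, gave summed levels of 4533 CPM at the low, 4996 at the medium and 4862 CPM at the high dose, beside 4674 to 4775 CPM in vehicle cells, so the low dose lay below the vehicle range and the others above it. At the medium and high doses no member passed 0.5 log2 units (1.49% and 1.32% of all genes were lower by that much, and 1.72% and 1.73% higher). At the low dose MKI67 did, at 204 CPM, against 323 to 339 CPM in vehicle cells (-0.69), in the library that stood apart, and 2.02% of all genes were as far below.

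Other genes of cell division moved with the list, by counts taken against vehicle at the high dose with edgeR and given in the order Scutellariae Radix, dried ginger and fresh ginger. Of all tested genes, 28.1%, 22.8% and 23.6% fell in that order, and 28.7%, 23.3% and 24.3% rose. Of 15 further kinetochore genes, 14 fell with Scutellariae Radix, 11 with dried ginger and 10 with fresh ginger, where ZWILCH rose. Among them NDC80, the microtubule coupler, changed by -0.80 ± 0.067, -0.71 ± 0.077 and -0.46 ± 0.065. Of 26 further spindle and cytokinesis genes, 26, 25 and 21 fell, and 2 rose with fresh ginger (PKMYT1, the kinase that inhibits CDK1, at 0.30 ± 0.072, and TRIP13 at 0.10 ± 0.042). Of 10 condensin and cohesin genes, 9, 9 and 7 fell, with NCAPD2, a condensin subunit, at -0.74 ± 0.036, -0.93 ± 0.042 and -0.56 ± 0.036. The APC/C list of 13, whose core subunits are made through the cycle, was mixed: 7 fell and 2 rose with Scutellariae Radix, 8 fell and 1 rose with dried ginger, and 5 fell with fresh ginger. Its largest fall in each was FBXO5 (EMI1), an APC/C inhibitor, at -0.93 ± 0.049, -0.60 ± 0.055 and -0.42 ± 0.047. With Sayeok-tang the same lists held 2 lower and 1 higher of 15, 6 and 4 of 26, 2 and 3 of 10, and 2 and 2 of 13. Of all genes, 19.9% were lower and 20.3% higher there, so these counts were near the share of all genes.

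Upstream regulators were mixed, and most S-phase genes were lower. Of 14 MuvB and E2F genes, 12 fell and 1 rose with Scutellariae Radix, 9 fell and 1 rose with dried ginger, and 7 fell and 2 rose with fresh ginger. The shares of all tested genes that fell were 28.1%, 22.8% and 23.6% in that order. MYBL2 (B-MYB) changed by -0.84 ± 0.047 with Scutellariae Radix and -0.56 ± 0.052 with dried ginger. Of 24 DNA replication genes, all fell with Scutellariae Radix (median -0.62), 19 fell with dried ginger (median -0.29) and 18 with fresh ginger (median -0.18). Thus the replication list lay nearer to the mitotic list with Scutellariae Radix (medians -0.62 and -0.78) than with dried ginger (-0.29 and -0.75), without a test of that difference. UNG (-1.07 ± 0.036), MCM5 (-0.99 ± 0.049) and MCM2 (-0.93 ± 0.036) fell furthest with Scutellariae Radix. With dried ginger CDC6 rose by 0.12 ± 0.038 and with fresh ginger RRM2 rose by 0.28 ± 0.034.

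The CDK inhibitor p21 (CDKN1A) differed between Scutellariae Radix and dried ginger, extracts with like falls of mitotic genes. It had 452, 441 and 472 CPM with Scutellariae Radix (2.15 ± 0.035, edgeR adjusted p = 2.4e-40), 112 and 113 CPM with dried ginger (0.13 ± 0.04, adjusted p = 0.0046) and 228, 218 and 226 CPM with fresh ginger (1.13 ± 0.035, adjusted p = 2.5e-29), against 103, 101 and 102 CPM in vehicle cells. The Coptidis Rhizoma medium-dose library had 218 CPM. At the high dose of Sayeok-tang, CDKN1A was at 153, 147 and 150 CPM, with the summed mitotic level at 95.5% of the vehicle mean. The inhibitors CDKN2C and CDKN1B fell in all 3 extracts, CDKN2C by -1.43 ± 0.065, -1.06 ± 0.072 and -0.89 ± 0.061.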

How the data were processed

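RNA of HepG2 cells (integrity number above 7, 1 µg of total RNA per library, directional library kit, 100-base paired reads on an MGI instrument, per the labels' protocols) was measured in 58 libraries of 24 groups. The deposited table holds expected counts per Ensembl gene made by the authors, with FastQC 0.11.9, Trim Galore 0.6.5, STAR 2.7.3a, RSEM 1.3.3 and the hg38 build named in the submitters' processing notes. Of its columns, 209 matched no sample here and were not used, and the wortmannin control was not analysed here. RSEM shares reads between copies of a gene. Of the nonzero values 75.3% were whole (exactly, with a tolerance of 0), and all were rounded.

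Symbols came from current names or GENCODE 29. Genes with at least 1 CPM in 3 libraries were fitted together over the groups with edgeR 4.0.16 (R 4.3.3; quasi-likelihood test, TMM scaling, factors 0.878 to 1.035), and p-values were adjusted by Benjamini-Hochberg over 13945 genes. CPM values are TMM-scaled, SE is the log2 fold change divided by the root of the F statistic, and errors of CPM are SD. The biological coefficient of variation was 4.25%. Groups with 1 library were described only, against a difference of 0.5 log2 units and the vehicle range (prior count 2). With depths of 22143845 to 31859981 counts, precision was set mostly by the spread between libraries. The fit was tested on simulated data.

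Of 30 comparisons, 3 were added after the data were seen (Scutellariae Radix against dried ginger, and the high against the medium dose of Scutellariae Radix and of Sayeok-tang). Named genes are a set panel of members, the 5 largest called rises and falls of a comparison and called members that went against most others, with up to 3 genes in each direction for other lists. Other members are named for their role or because they missed a test or lost a call, after their values were seen. Members and lists were chosen with earlier results of these data known. Alternatives were RLE scaling, no filter, DESeq2 1.42.0, the replicate number as a block, only the groups compared, leaving out 3 libraries that stood apart, leaving out each library, and, for single libraries, a 0.25 log2 limit or a prior count of 0.5.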

Additional observations from a re-analysis of the deposited data

How the results depend on the processing

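The counts at the high doses of Scutellariae Radix (39 when each library was left out), dried ginger (38 to 39) and fresh ginger (33 to 36), and of fresh against dried ginger (33 to 38), stayed within 1.5 times the reported count under every alternative run. No named gene changed direction past the test. Small counts moved. With RLE scaling, 1 member was called at the medium dose of dried ginger and 1 for Pinelliae Tuber high against low. Without the filter on low counts the count was 0 for Bojungikgi-tang high, 1 for Bojungikgi-tang medium, 5 for fresh ginger medium, 1 for fresh ginger low, 2 for dried ginger low, 2 for Pinelliae Tuber medium and 2 for its low dose, 1 for Bojungikgi-tang high against low and 0 for Pinelliae Tuber high against low. With only the groups compared it was 1 for fresh ginger low, 0 for dried ginger low, 9 for Pinelliae Tuber high, 2 for its medium dose, 0 for Scutellariae Radix low and 0 for Bojungikgi-tang high against low. With DESeq2 it was 1 for Bojungikgi-tang medium, 1 for dried ginger medium, 1 for Pinelliae Tuber medium, 2 for its low dose and 1 for its high against low dose. Without the 3 libraries that stood apart it was 2 for Bojungikgi-tang high, 0 for dried ginger low, 8 for Pinelliae Tuber high, 1 for its medium dose, 2 for its low dose and 2 for Scutellariae Radix low. With the replicate block it was 2 for dried ginger low, 1 for Pinelliae Tuber medium and 1 for its low dose. In no comparison with 3 pairs did the deviations of all same-numbered libraries correlate above 0.1. That limit cannot exclude a shared replicate effect. For fresh ginger high against low, same-numbered pairs correlated at 0.047 to 0.206 and other pairs at -0.172 to 0.028. Same-numbered pairs also lay above the others for Pinelliae Tuber high against low (0.024 to 0.068, others -0.046 to 0.016). So they did for Sayeok-tang high against medium (0.022 to 0.079, others -0.06 to 0.003). In the other comparisons with 3 pairs the ranges overlapped. For Scutellariae Radix high against low they were -0.068 to -0.015 for same-numbered and -0.017 to 0.038 for other pairs. With the 0.25 log2 limit, 19 members passed at the low dose of Coptidis Rhizoma, and 1, 1 and 3 at the high, medium and low doses of Zizyphi Fructus. The cause was not tested.

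When each library was left out in turn, the count ran from 11 to 16 for Sayeok-tang high, 1 to 8 for its medium dose, 0 to 1 for Bojungikgi-tang high and for its medium dose, 4 to 9 for fresh ginger medium, 0 to 4 for dried ginger medium, 0 to 2 for dried ginger low, 2 to 8 for Pinelliae Tuber high, 0 to 1 for its medium dose and for its low dose, 5 to 8 for Scutellariae Radix medium and 1 to 8 for its low dose. It ran from 0 to 2 for Bojungikgi-tang high against low and for Pinelliae Tuber high against low.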
